A study of Mus musculus with 8 samples.

Results

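Transcriptional targets of the tumour suppressor p53 were followed in 8 whole mouse melanomas. The 10 genes were given by name (Zmat3, Ccng1, Phlda3, Trp53inp1, Sesn1, Sesn2, Bax, Bbc3, Perp and Aen), and every probe whose platform symbol was one of them was taken. That gave 19 of the 25697 probes, for 9 of the 10 genes. No row carried the symbol Bax, and its expression was not analysed here. Of the 19 probes, 17 lay above the filter on dim probes (a mean log2 intensity over 7.24, the 40th percentile of all probes), and each of the 9 genes had at least 1 of them.

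The samples were C57BL/6 mice with BrafCA, a Braf allele that becomes oncogenic after Cre recombination, and Tyr::CreER, which drives a tamoxifen-dependent Cre in melanocytes. Newborn skin was painted with 4-hydroxytamoxifen, and tumours were taken at day 20, 38 or 60 afterwards. The WT group had Ifnar1+/+, the normal type I interferon receptor gene, and was sampled at day 38 (2 samples). The SA groups had Ifnar1SA, whose receptor chain is known to resist degradation, and were sampled at days 20, 38 and 60 (2 samples each). The treatment protocol in the labels names Ifnar1-/- where the genotype field names Ifnar1SA, and the genotype field was followed. No label states that replicates are separate animals, and p-values then measure only the spread between these samples.

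Values are log2 intensities of 1-colour bead arrays. In whole tumours, fewer cells of a type and less RNA per cell cannot be told apart. The Cre acts in melanocytes, but the melanocyte genes varied widely. Of 14 markers 11 were tested. Their summed intensity was 19646 and 123780 in SA at day 20 and 23502 and 28380 in WT. It was 49037 and 69331 in SA at day 38 and 123682 and 170761 at day 60. Replicates agreed best in WT (160 measurements over 2-fold apart) and least in SA at day 20 (1145). Sex-linked genes set SA at day 38 apart. Xist, which silences 1 X chromosome in female cells, averaged 9.44 there, 7.0 in WT and 7.20 in SA of both other days, and the Y-linked Eif2s3y averaged 6.15 against 11.46 to 11.75. Genotype at day 38, and day 38 in the time course, thus cannot be told apart from sex.

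p53 is a transcription factor that is held low by the ubiquitin ligase Mdm2 and accumulates after DNA damage or oncogene activation. Its targets halt the cell cycle, repair DNA, restrain growth signalling or start apoptosis, and in melanocytes that carry mutant Braf the pathway is studied as one barrier to tumour growth beside senescence. p53 binds DNA as a tetramer, at pairs of a loosely conserved decamer whose core is a C, an A or T in each of the next 2 places, and a G.

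The p53 consensus decamer was searched on both strands (it reads the same on each) in the RefSeq promoter windows of build GRCm38.p6, which span 250 bases before to 50 after a gene's start. Of the 10 genes, 7 had a window (11 windows in all), and 4 of the 7 held the decamer, as did 9.55% of all 27025 genes with a window. A pair of decamers at most 13 bases apart was in 0 of the 11 windows and in 0.0731% of all 32851. The matches are shown because they are where these promoters carry the letters that p53 prefers. Capitals mark the decamer and each sequence is on the gene's strand. A match is a description of the letters and no measured binding, and a window with no match says nothing of sites elsewhere in a gene. The first lies 185 bases before the start of Ccng1 (chr11:40755452-40755481, minus strand), the next 173 bases before a start of Sesn1 (chr10:41887256-41887285, plus strand), the next 201 bases before the start of Bax (chr7:45467080-45467109, minus strand), and the last 121 bases before one start of Aen and within the transcript from its other start (chr7:78895927-78895956, plus strand).
Ccng1: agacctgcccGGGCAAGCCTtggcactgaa
Sesn1: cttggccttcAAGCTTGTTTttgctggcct
Bax: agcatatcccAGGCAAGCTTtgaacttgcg
Aen: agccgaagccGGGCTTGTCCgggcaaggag

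No p53 target was called in any comparison. The differences had no direction common to the 4 comparisons. In SA, 8 of 9 were lower at day 38 than at day 20, but 6 of 9 without either day 38 array of SA. The largest differences were at day 60 in SA, where the brightest probe of Ccng1 read 0.548 times its day 38 level and those of Trp53inp1 and Sesn1 read 0.583 and 0.564 times their day 20 levels, while that of Phlda3 read 1.56 times its day 20 level. A linear model with 1 mean per group was fitted to all 11661 measurements (1 probe per gene) with limma, and called means an adjusted p (Benjamini-Hochberg, over all measurements) under 0.05. In the test of any difference between the 4 groups 0 of the 9 genes was called, against 0.283% of all measurements, and 0 of 9 had an unadjusted p under 0.05, against 30.8%. The smallest adjusted p was 0.172, for Ccng1.

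**Figure D1:**
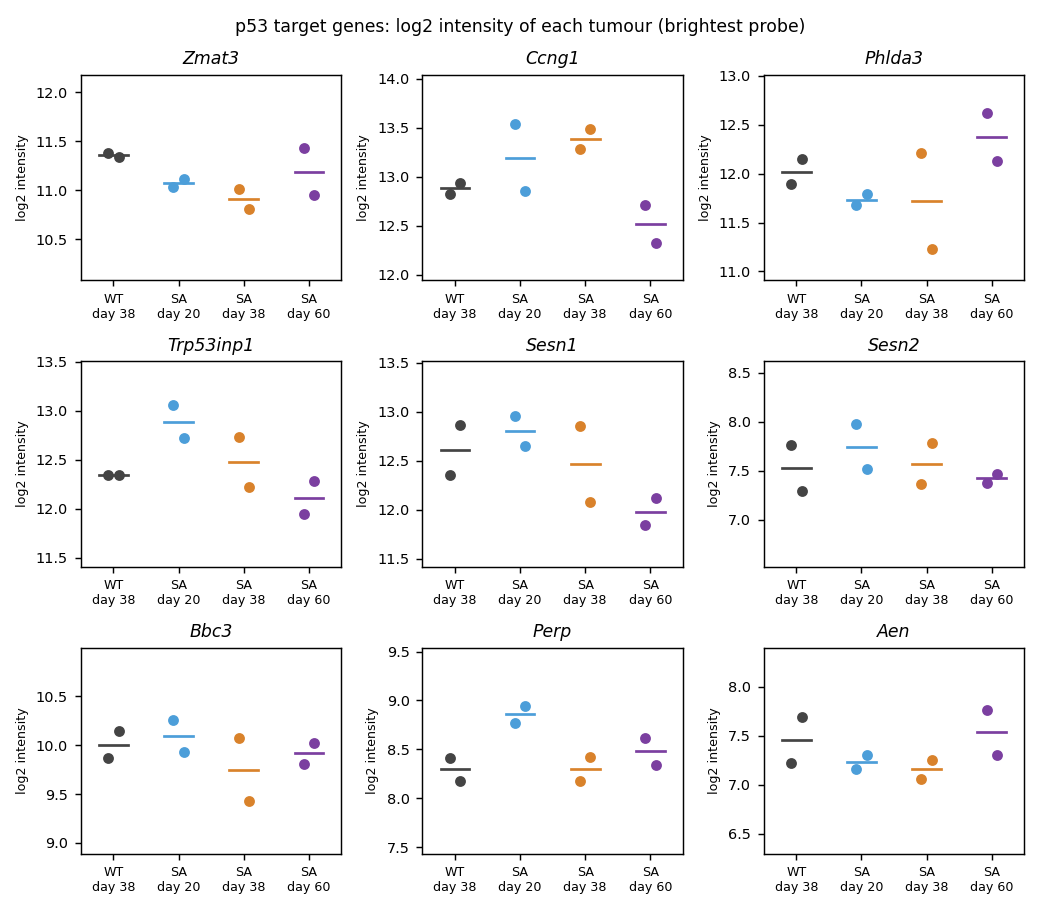
Log2 intensity (y axis) of the brightest probe of each of the 9 p53 targets in each tumour (points), with group means as bars, by group (x axis); every panel spans the same log2 range. Ccng1 was lowest in both SA tumours at day 60, Perp highest in both at day 20, and the pair of SA tumours at day 38 lay apart for Phlda3 and Sesn1.

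SA against WT at day 38 compares the genotypes at the 1 time taken from both, where genotype cannot be told apart from sex. Of the 9 genes 0 was called, against 0.06% of all measurements, 0 had an unadjusted p under 0.05 (14.1% of all), and the groups did not overlap for 2 of 9 (54.1% of all). The median difference was −0.14 over the 9 genes and −0.02 over all measurements, with 4 of 9 higher and 5 lower. In SA from day 20 to day 38, 0 of 9 was called (0.0172% of all), 1 of 9 had an unadjusted p under 0.05 (10.7% of all), and the groups did not overlap for 2 of 9 (38.1% of all). The median was −0.18, with 8 of 9 lower, and 0.01 over all measurements, with 5706 of 11661 lower. The 8 became 6 without either day 38 array of SA and 7 without either day 20 array. From day 38 to day 60, 0 of 9 was called (1.09% of all), 1 of 9 had an unadjusted p under 0.05 (26.1% of all) and 2 of 9 did not overlap (57.9% of all), with a median of 0.17 against 0.04. From day 20 to day 60, 0 of 9 was called (0% of all), 3 of 9 had an unadjusted p under 0.05 (23.5% of all) and 6 of 9 did not overlap (52.7% of all), with a median of −0.32 against 0.03. The time comparisons share the SA groups and are not separate results. The shares of these genes were near or below the background in the first 3 comparisons. In the last, 3 and 6 of 9 were a little above shares of 23.5% and 52.7%, with 0 called. Over 9 genes this excess is too small to set them apart from the background.

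**Figure D2:**
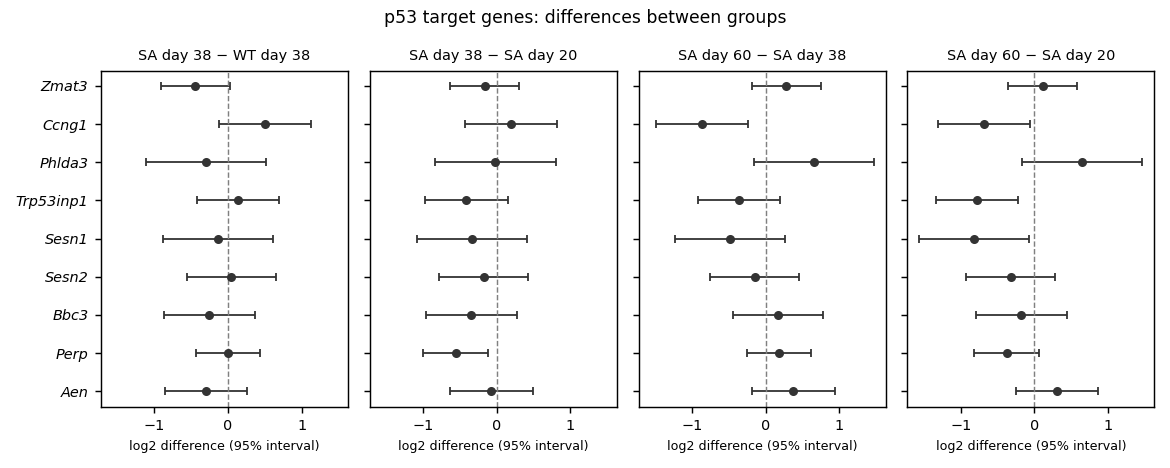
Log2 difference between group means (x axis, points) with its 95% interval from the limma fit (bars) for the 9 p53 targets (y axis) in the 4 comparisons. Intervals that leave out 0 before adjustment belong to Perp from day 20 to 38, Ccng1 from day 38 to 60, and Ccng1, Trp53inp1 and Sesn1 from day 20 to 60; none passed after adjustment.

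Ccng1 (chr11:40748552-40755309 in GRCm38.p6, the build of all positions given) encodes cyclin G1, which brings a phosphatase to Mdm2 and so feeds back on p53. Its brightest probe (ILMN_2500276) read 12.82 and 12.94 in WT, 13.53 and 12.86 in SA of day 20, 13.28 and 13.49 at day 38, and 12.71 and 12.32 at day 60. The 2 tumours at day 60 were below every other tumour. From day 38 to day 60 the difference was −0.87 (SE 0.26, 95% interval −1.49 to −0.24), with a limma adjusted p of 0.106, and from day 20 to day 60 it was −0.68 (SE 0.26, adjusted p = 0.188), with −0.34 without day 20 replicate 1 and −1.02 without day 20 replicate 2. Against WT at day 38, SA read 0.51 higher (95% interval −0.12 to 1.13, adjusted p = 0.426), and the groups did not overlap.

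All 3 Ccng1 probes gave the same picture. The second (ILMN_2710229) read 11.37 and 11.44 in WT, 11.92 and 11.56 at day 20, 11.71 and 12.14 at day 38, and 10.97 and 10.47 at day 60. The third (ILMN_2702233) read 10.05 and 10.19 in WT, 10.65 and 10.26 at day 20, 10.47 and 10.83 at day 38, and 9.88 and 9.28 at day 60. By both probes the day 60 tumours were again the lowest. Their differences from day 38 to day 60 were −1.21 and −1.07, with adjusted p-values of 0.0561 and 0.0727 where every probe was tested on its own. Between SA and WT at day 38 they differed by 0.52 and 0.53. The 3 probes thus had the same sign in each of these comparisons, without a call.

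Skeletal muscle genes moved with Ccng1 in some tumours but not in all. The 16 of 17 muscle markers tested had a summed intensity of 104577 and 92139 in WT and 519611 and 334766 in SA of day 20. It was 365641 and 565265 at day 38, and 273154 and 37427 at day 60. The tumours with the most muscle signal, day 20 replicate 1 and day 38 replicate 2, were also those with the highest Ccng1, and the tumour with the least, day 60 replicate 2, had the lowest. The WT tumours had little muscle signal and Ccng1 levels in the middle of the range. Day 60 replicate 1 had more muscle signal than either WT tumour but less Ccng1 (12.71 against 12.82 and 12.94). Muscle was not alone in this. Fat cell genes had high sums in SA at day 38 (111432 and 125591) and in day 20 replicate 1 (88875). Their sums were low at day 60 (27244.5 and 26959.8), and as low in WT (26844.8 and 28758.8). The part of muscle or fat in the Ccng1 values was not tested.

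Zmat3 (chr3:32334792-32365665) encodes a zinc finger protein that binds RNA and is among the most steadily induced p53 targets. Its 1 probe (ILMN_2418426) read 11.38 and 11.33 in WT, 11.04 and 11.11 in SA of day 20, 11.01 and 10.80 at day 38, and 11.43 and 10.95 at day 60. Both WT tumours were above the SA tumours of days 20 and 38, and the day 60 pair spanned nearly the whole range. SA read 0.44 lower than WT at day 38 (difference −0.44, SE 0.20, 95% interval −0.92 to 0.03), with a limma adjusted p of 0.373. This was the smallest adjusted p of the 9 genes in that comparison.

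Phlda3, Trp53inp1, Sesn1 and Sesn2 are the members that act on growth and stress signalling. Phlda3 (chr1:135766085-135769134) encodes a protein with a pleckstrin homology domain that keeps the kinase Akt off the membrane. Its brightest probe (ILMN_2923607) read 11.89 and 12.15 in WT, 11.68 and 11.79 in SA of day 20, 12.21 and 11.22 at day 38, and 12.62 and 12.13 at day 60. The difference was 0.64 from day 20 to day 60 (SE 0.34, 95% interval −0.17 to 1.46, adjusted p = 0.302) and 0.66 from day 38 to day 60 (adjusted p = 0.266). The latter was 0.17 without day 38 replicate 2 and 1.15 without day 38 replicate 1.

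The second Phlda3 probe (ILMN_2628567) had wider gaps between replicates. It read 10.88 and 11.13 in WT, 11.00 and 10.66 at day 20, 11.62 and 8.81 at day 38, and 11.47 and 9.60 at day 60, so that replicate 2 of days 38 and 60 lay below all other tumours and the replicates of a group were up to 2.81 apart. It had the sign of the brightest probe in 3 of the 4 comparisons (−0.79 and −0.30 for SA against WT at day 38, −0.62 and −0.02 from day 20 to 38, 0.32 and 0.66 from day 38 to 60), and the opposite sign from day 20 to day 60, at −0.30. A higher Phlda3 at day 60 than at day 20 was therefore read by 1 probe of 2, without a call.

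**Figure D3:**
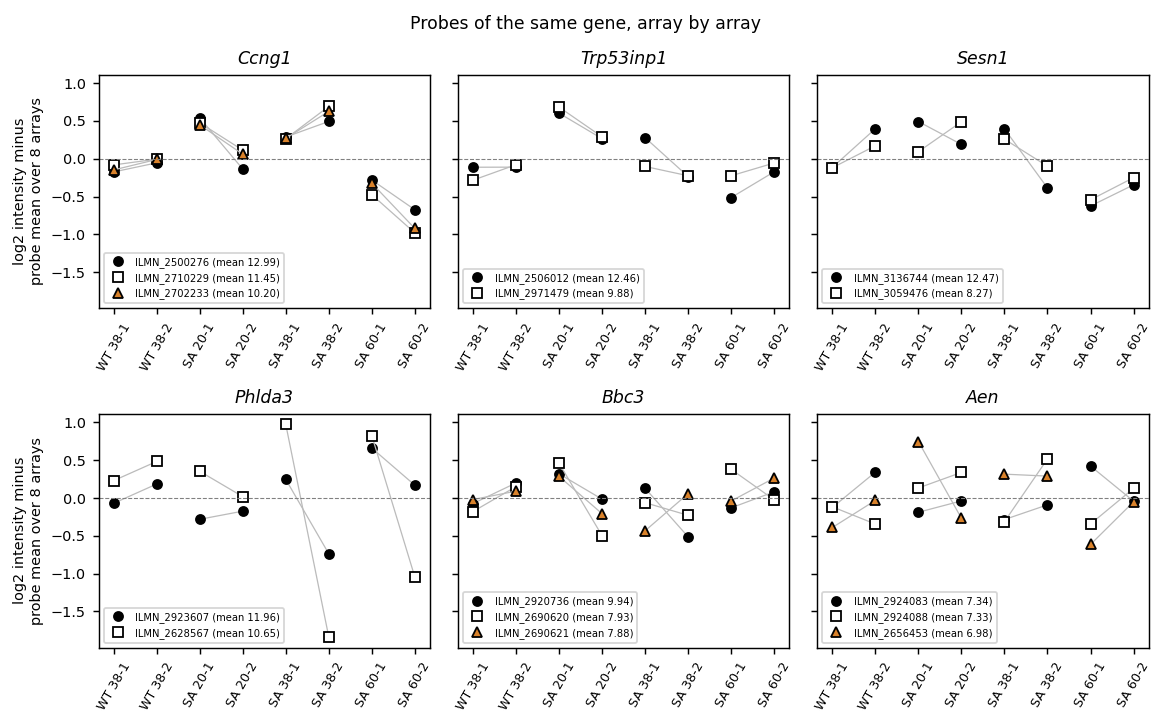
Log2 intensity minus the probe's mean over the 8 arrays (y axis) for every probe (symbols, with each probe's mean level in the key) of 6 p53 targets on each array (x axis, group day and replicate number); grey lines join the replicates of a group. The 3 Ccng1 probes and the 2 Sesn1 probes were lowest on a day 60 array, replicate 2 of SA days 38 and 60 lay far below replicate 1 in the second Phlda3 probe, and the Aen probes crossed.

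Trp53inp1 (chr4:11156441-11174379) encodes a nuclear protein that assists p53 and also takes part in autophagy. Its brightest probe (ILMN_2506012) read 12.34 in both WT tumours, 13.06 and 12.72 in SA of day 20, 12.73 and 12.22 at day 38, and 11.94 and 12.28 at day 60. Day 20 was the highest group and did not overlap day 60, with a difference of −0.78 (SE 0.23, 95% interval −1.34 to −0.22) and a limma adjusted p of 0.136. The second probe (ILMN_2971479) was dimmer, with 9.59 and 9.80 in WT, 10.56 and 10.17 at day 20, 9.77 and 9.65 at day 38, and 9.65 and 9.82 at day 60. By this probe both day 20 tumours were above all others, and the difference from day 20 to day 60 was −0.63 (adjusted p = 0.135). From day 38 to day 60 the probes differed, at −0.36 and 0.02, and from day 20 to day 38 they gave −0.41 and −0.65 (adjusted p = 0.567 and 0.335).

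Sesn1 (chr10:41810574-41908436) and Sesn2 (chr4:132492804-132510456) encode sestrins, which restrain the growth kinase complex mTORC1 when amino acids are short and lower oxidative stress. Sesn1 (ILMN_3136744) read 12.35 and 12.86 in WT, 12.96 and 12.65 in SA of day 20, 12.86 and 12.08 at day 38, and 11.84 and 12.12 at day 60. The day 60 pair was lowest apart from an overlap with day 38 replicate 2. From day 20 to day 60 the difference was −0.83 (SE 0.31, 95% interval −1.57 to −0.08, adjusted p = 0.183) by the brightest probe and −0.69 (adjusted p = 0.152) by the second. The second probe (ILMN_3059476) read 8.15 and 8.44 in WT, 8.36 and 8.76 at day 20, 8.53 and 8.17 at day 38, and 7.73 and 8.02 at day 60, with both day 60 tumours below all others. SA against WT at day 38 gave −0.14 (95% interval −0.88 to 0.61) by the first probe and 0.05 by the second.

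Sesn2 read much closer to background. Its brightest probe (ILMN_2948945) stood at the 47.0 percentile of all probes, with 7.76 and 7.30 in WT, 7.98 and 7.52 at day 20, 7.36 and 7.78 at day 38, and 7.37 and 7.47 at day 60. WT and SA overlapped at day 38, and the largest difference, −0.32 from day 20 to day 60, had a 95% interval of −0.93 to 0.28 (adjusted p = 0.468). The second Sesn2 probe (ILMN_1219984) was below the filter, at 5.87 to 7.21 over the 8 arrays. Near the background, log2 intensities understate differences.

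Bbc3, Perp and Aen are the apoptosis genes of the set. Bbc3 (chr7:16308398-16318334) encodes PUMA, which binds the survival proteins of the Bcl2 family and frees Bax to open mitochondria. Its brightest probe (ILMN_2920736) read 9.87 and 10.14 in WT, 10.26 and 9.93 in SA of day 20, 10.07 and 9.43 at day 38, and 9.81 and 10.02 at day 60. All 4 groups overlapped in each comparison made. Its differences ran from −0.35 (day 20 to day 38, 95% interval −0.96 to 0.27) to 0.17 (day 38 to day 60, 95% interval −0.45 to 0.79), with adjusted p-values of 0.660 to 0.711. The other 2 probes (ILMN_2690620 and ILMN_2690621) were dimmer, at 7.43 to 8.39 and 7.44 to 8.16 over the 8 arrays. They gave 0.32 and 0.30 from day 38 to day 60. From day 20 to day 60 they gave 0.20 and 0.07, opposite in sign to the brightest probe (−0.18). In the remaining comparisons all Bbc3 probes had the same sign.

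Perp (chr10:18845071-18857073) encodes a membrane protein that takes part in apoptosis and is also a component of desmosomes in skin, where the p53 relative p63 drives it. Its 1 probe (ILMN_1256476) read 8.42 and 8.18 in WT, 8.77 and 8.95 in SA of day 20, 8.18 and 8.42 at day 38, and 8.62 and 8.34 at day 60. It stood at the 58.9 percentile of all probes, with intensities of 483.8 to 687 against array medians of 409.3 to 410. Both day 20 tumours were above all others. The difference from day 20 to day 38 was −0.56 (SE 0.18, 95% interval −1.0 to −0.12), with a limma adjusted p of 0.359, and SA and WT at day 38 differed by 0.00 (95% interval −0.44 to 0.44).

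Keratinocyte genes moved with Perp. The 16 of 19 epidermal markers tested had their highest summed intensity at day 20, at 325675 and 320243. It was 264961 and 259640 in WT, 286195 and 282341 at day 38, and 295756 and 312845 at day 60. From day 20 to day 38, 13 of the 16 were lower with a median of −0.54 and 0 called. The sums were higher in SA than in WT at day 38, where Perp differed by 0.00. At day 60 the tumour with the higher sum had the lower Perp (8.34 against 8.62). The part of epidermis in the Perp values was not tested.

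Aen (chr7:78895927-78911209) encodes a nuclease that enhances apoptosis. Its brightest probe (ILMN_2924083) stood at the 42.3 percentile, just above the filter, and read 7.22 and 7.69 in WT, 7.16 and 7.31 at day 20, 7.06 and 7.25 at day 38, and 7.77 and 7.30 at day 60. SA against WT at day 38 gave −0.30 (95% interval −0.86 to 0.26, adjusted p = 0.595) and day 38 to day 60 gave 0.38 (adjusted p = 0.344). The second probe (ILMN_2924088) read 7.22 and 6.99 in WT, 7.47 and 7.67 at day 20, 7.02 and 7.85 at day 38, and 6.99 and 7.46 at day 60. It gave 0.33 and −0.21, opposite in sign in both comparisons. The third (ILMN_2656453) was below the filter, at 6.37 to 7.73. The 2 probes that were tested thus gave Aen no common direction.

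The best known p53 targets were not called either. Mdm2, the p53 ubiquitin ligase and itself a target, averaged 12.34 ± 0.11 (SD, n = 2) in WT tumours, 12.50 ± 0.14 in SA of day 20, 12.25 ± 0.06 at day 38 and 12.59 ± 0.22 at day 60. Cdkn1a, whose product p21 stops cyclin-dependent kinases, averaged 12.89 ± 0.08, 13.19 ± 0.21, 13.12 ± 0.10 and 13.34 ± 0.12 in the same order. Their differences between SA and WT at day 38 were −0.09 (95% interval −0.50 to 0.32, limma adjusted p = 0.851) and 0.22 (95% interval −0.18 to 0.63, adjusted p = 0.577). From day 38 to day 60 they were 0.34 and 0.23 (adjusted p = 0.259 and 0.423). These values are of the brightest probes. In the same 2 comparisons the second Mdm2 probe past the filter gave −0.14 and 0.23. For Cdkn1a the second probe gave 0.27 and 0.39, and the third −0.01 and 0.06. From day 20 to day 60 the third Cdkn1a probe gave −0.35, against 0.15 and 0.18 by the others.

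Of 35 other p53 targets 24 were tested, and 0 was called in any of the 4 comparisons. Their medians were −0.03 for SA against WT at day 38, −0.01 from day 20 to 38, 0.02 from day 38 to 60 and 0.07 from day 20 to 60. The target with the largest difference was Plk2, a kinase gene, at 1.70 from day 38 to day 60 (SE 0.51, adjusted p = 0.108) and 1.79 from day 20 to day 60 (adjusted p = 0.129). The second value was 0.97 without day 20 replicate 1 and 2.60 without day 20 replicate 2. The death receptor gene Fas read 0.61 higher in SA than in WT at day 38 (adjusted p = 0.306). Among 15 of 20 p53 regulators tested 0 was called, with medians of 0.20, 0.06, −0.08 and −0.01 in the same order. Chek2, a kinase that activates p53 after DNA breaks, read 0.93 higher at day 38 than at day 20 (adjusted p = 0.203) and −0.80 from day 38 to day 60 (adjusted p = 0.0742) by its brightest probe. Its other probe past the filter gave −0.02 and −0.33.

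Partners of the apoptosis and sestrin genes were not called either. Among 16 of 19 genes of the Bcl2 family and caspase activation the medians were −0.26, 0.04, 0.13 and 0.10 in the same order. Bik and Bak1, both of which promote apoptosis, read −1.54 and −0.63 in SA against WT at day 38 (adjusted p = 0.218 and 0.237), and the caspase inhibitor gene Xiap read −0.90 from day 38 to day 60 (adjusted p = 0.0540). Among 16 of 22 genes of the sestrin and mTORC1 pathway the medians were 0.10, 0.08, −0.11 and 0.10. Mios, a subunit of the complex on which sestrins act, read −0.94 in SA against WT at day 38 (SE 0.14, adjusted p = 0.148). Among 13 of 14 genes of the integrated stress response, which also drives Sesn2, 0 was called. The medians were 0.17, −0.18, 0.68 and 0.28. Its members did not move together: from day 38 to day 60, 8 were higher and 5 lower. Nqo1 and Sqstm1 read 1.502 and 0.728 in that comparison, while Chac1 read −1.529, and −1.682 from day 20 to day 60. The median of 0.68 was 0.297 without day 38 replicate 2 of SA, and does not stand for every member.

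Genes that p53 is known to repress through the DREAM complex, most of them needed for mitosis, had larger medians (in size) than the induced targets in the 4 comparisons with all 8 arrays. Of the 24, 16 were tested, and all 16 were lower at day 60 than at day 38, with a median of −1.47 against 0.04 over all measurements. Only Kif11, a spindle motor gene, was called: it fell by 1.5 on the log2 scale (SE 0.23, limma adjusted p = 0.0447), a call that was kept in 10 of 20 alternatives. Of those 10, 2 left out a day 20 array, which is in neither group compared. They change only the spread that the fit shares, and are no separate check of the call. The call was lost without any 1 of the other 6 arrays. It was also lost without the filter (limma adjusted p = 0.0806), with only the 2 groups (0.0800) and with the replicate block (0.0667). Without 1 array the median of the 16 ran from −1.64 (without day 38 replicate 1 of SA) to −1.22 (without day 38 replicate 2 of SA). At day 38 all 16 were higher than at day 20, with a median of 0.61 and 0 called. The median was 0.21 without day 20 replicate 1, 1.01 without day 20 replicate 2 and 0.36 without day 38 replicate 2. The list also had 15 of 16 higher in SA than in WT at day 38, with a median of 0.24 and 0 called, and without day 38 replicate 2 of SA it had 11 of 16 higher and a median of 0.03. Against day 20, 13 of 16 were lower at day 60 with a median of −0.80 and 0 called, which was −1.24 without day 20 replicate 1 and −0.35 without day 20 replicate 2.

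**Figure D4:**
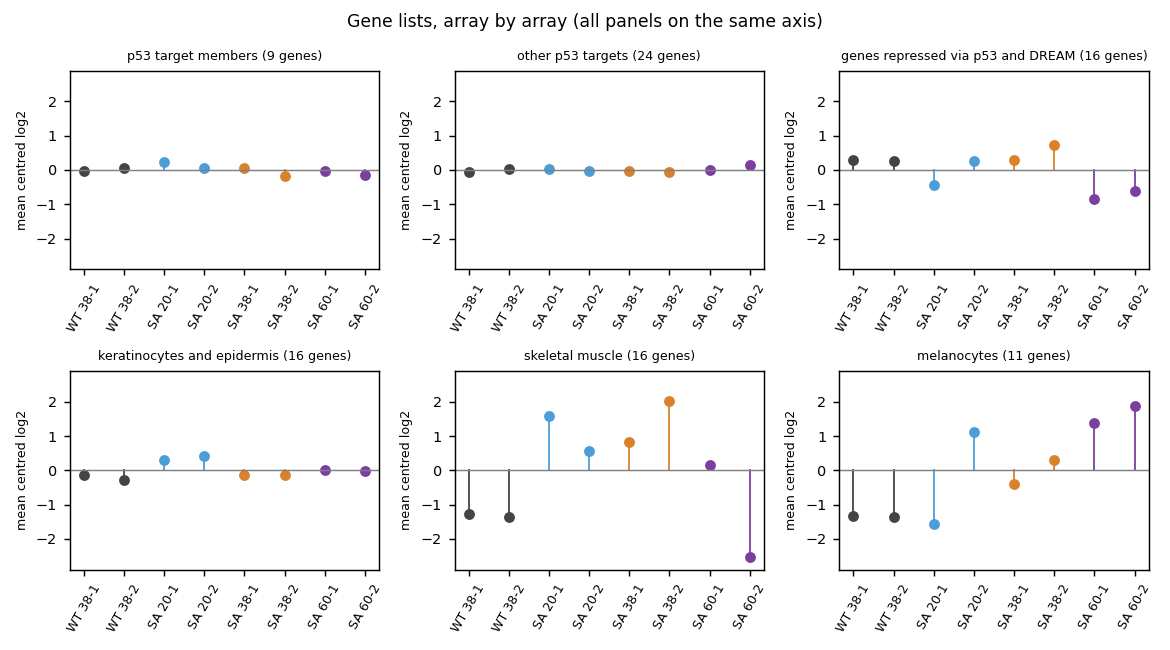
Mean over the genes of a list of the log2 intensity centred on each gene's mean over the 8 arrays (y axis, same range in all panels) on each array (x axis). The p53 targets stayed within −0.18 to 0.23 and the other p53 targets within −0.07 to 0.14, while the mitotic genes, muscle and melanocyte lists ran over wider ranges.

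Lists of other cell types moved between the same groups. In the order SA against WT at day 38, day 20 to 38, day 38 to 60 and day 20 to 60, the muscle list had medians of 2.67, 0.33, −2.79 and −2.41 with 0 called. Fat cell genes had medians of 3.38, 0.69, −1.68 and −0.65, with Adig higher in SA at day 38 (3.38, adjusted p = 0.0444) and Lep and Lpl lower at day 60 than at day 38 (−4.53 and −2.34, adjusted p = 0.0420 for each). Melanocyte genes had medians of 1.51, 0.20, 2.04 and 2.17, and Mitf, their master regulator, rose by 2.45 from day 38 to day 60 (adjusted p = 0.0420). The medians were 0.37, 0.10, −0.64 and −0.86 for immune cells, −0.52, 0.18, −0.59 and −0.53 for fibroblasts, and 0.10, 0.01, 0.19 and −0.02 for endothelium, each with 0 called. Keratinocyte medians outside the one given were 0.10, 0.21 and −0.24 for SA against WT, day 38 to 60 and day 20 to 60, with 0 called. The calls of Adig, Lep, Lpl and Mitf were lost without any 1 of the 6 arrays other than those of day 20. They were kept without either day 20 array, which is in none of the groups these calls compare and changes only the shared spread. The replicate block ended all 4 (adjusted p = 0.135 for Adig, 0.0542 for Mitf and Lpl, 0.0546 for Lep). The calls of Mitf (adjusted p = 0.0750), Lpl (0.0749) and Lep (0.0730) were also lost without the filter, those of Adig (0.0549) and Mitf (0.0527) with only the 2 groups, and that of Adig without background correction (0.0706). The melanocyte median from day 20 to 38 ran from −1.01 to 1.70 and that of muscle from day 38 to 60 from −4.49 to −1.22 without 1 array. The part of these cell types in the p53 target values was not tested.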

How the data were processed

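The deposited value table holds linear intensities of Illumina bead arrays (183.9 to 71767). Their sorted values agree between arrays (medians 409.3 to 410), a sign that the authors quantile normalized them, and no value is near 0, so background was not subtracted; the submitters' processing notes name GenomeStudio 1.8. A second table, headed by slide positions that no label ties to a sample, was not used. Intensities were corrected with limma 3.58.1 in R 4.3.3 (normexp, saddle, offset 16), put on the log2 scale and filtered at the 40th percentile of probe means. The brightest probe stood for a gene. One mean per group was fitted (lmFit and eBayes, 4 residual degrees of freedom), with Benjamini-Hochberg adjustment over 11661 measurements, and the procedure was tested on simulated data. Precision is limited by the number of arrays. The genes, lists and tests were chosen with earlier results of these data known. Every member and probe is named, as are Mdm2 and Cdkn1a, and of other lists called genes (up to 4) or those with the smallest p. Trp53 had no row. 1 further item of the mouse model, shared by all groups, is not reported here. Gene positions and promoters are from RefSeq, GRCm38.p6.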

Additional observations from a re-analysis of the deposited data

How the results depend on the processing

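With 2 arrays per group and 4 residual degrees of freedom, the intervals given are wide, and a missed threshold does not show that groups were alike. Of the 36 differences of the 9 p53 targets, 0 was called under any of 20 alternatives, and the lowest adjusted p was 0.0503, for Ccng1 from day 38 to day 60 without either day 20 array. The stricter filter left out Perp, Sesn2 and Aen. From day 38 to day 60, the measurements called over the whole table went from 127 to 3 without the filter and to 365 without background correction, and ran from 1 to 930 without 1 array. From day 20 to day 60 they ran from 0 to 915 without 1 array.

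The replicate numbers did not pair the samples (correlation of same-numbered deviations −0.19, −0.11, −0.20 and 0.05). With the replicate block, 0 of the 9 genes were called, and 1, 1, 1 and 0 measurements in the 4 comparisons, against 7, 2, 127 and 0 without it. With the numbers of SA at day 38 crossed, an alternative chosen after seeing the data, the counts were 3, 4, 5 and 8.

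The sign turned for 17 of the 36 differences. Without 1 array, 14 changed sign, 16 kept it but moved by over 1.5 times, and 6 stayed within that: Zmat3 and Ccng1 for SA against WT, Perp from day 20 to 38, Ccng1 from day 38 to 60, and Trp53inp1 and Sesn1 from day 20 to 60. The other 3 sign changes came under the mean of a gene's probes. They were Aen for SA against WT at day 38 (0.018), Bbc3 from day 20 to day 60 (0.032) and Aen from day 20 to day 60 (−0.020). Without 1 array, values for SA against WT at day 38 ran from −0.12 to 0.12 for Perp, −0.12 to 0.39 for Trp53inp1, −0.58 to 0.065 for Bbc3, −0.80 to 0.19 for Phlda3, −0.19 to 0.28 for Sesn2 and −0.53 to 0.25 for Sesn1. From day 20 to day 38 they ran from −0.15 to 0.53 for Ccng1, −0.51 to 0.47 for Phlda3, −0.17 to 0.023 for Aen, −0.40 to 0.052 for Sesn2 and −0.73 to 0.054 for Sesn1. From day 38 to day 60 they ran from −0.15 to 0.49 for Bbc3 and −0.36 to 0.062 for Sesn2, and from day 20 to day 60 from −0.13 to 0.36 for Zmat3. The cause was not tested.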
